A study of Mus musculus with 4 samples.

Results

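Cohesin is a ring-shaped complex that holds sister chromatids together. Between divisions it also sits on chromatin, mostly at positions bound by CTCF, a sequence-specific DNA binding protein, and pairs of such positions are known to anchor chromatin loops. Rad21 is the subunit that closes the ring, so ChIP-seq with an antibody against Rad21 marks where cohesin lies along the genome. The sites described here are those at which the Rad21 signal was broad in both neural stem cells (NSCs) and astrocytes (ASTs) of the mouse. A site was a pair of peaks, 1 from each cell type, that overlapped by at least 1 bp, with neither peak overlapping a second peak of the other cell type. The sites were selected on peak width, with both peaks at 300 bp or more and autosomes only. Of 11718 autosomal sites shared 1-to-1 between the cell types, 1392 were wide in both (11.9%, exact binomial 95% interval 11.3 to 12.5).

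NSCs were a cloned line derived from embryonic stem cells and grown without serum in EGF and FGF. ASTs were non-dividing cells obtained from NSCs with a BMP and kept with BMP, FGF and laminin. No treatment was applied to either, and neither the genotype nor the number of cultures behind a library is stated in the sources used. For NSCs and for ASTs alike there was a single Rad21 library with its input, 4 libraries in all. Without replicates a difference between NSCs and ASTs has no spread to be measured against, and no p-value was computed. The lists held 17925 autosomal peaks for NSCs and 15707 for ASTs. Peak lists hold no expression values, so the cell types could not be checked against their markers. The depth of the libraries is likewise not stated. Shares carry exact binomial 95% intervals and medians carry 95% intervals from order statistics, and both cover the counting of sites in these libraries only.

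The rule was set by the AST list more than by the NSC list. Peaks of 300 bp or more numbered 4841 in NSCs (27.0% of autosomal peaks) and 1973 in ASTs (12.6%). The 1392 sites made up 28.8% of the wide NSC peaks and 70.6% of the wide AST peaks. A further 2991 shared sites were wide in NSCs only, 508 were wide in ASTs only and 6827 were narrow in both. Width chose the sites, so it is given as a description. The median width was 391 bp in NSCs (lower and upper quartiles 345 and 448) and 348 bp in ASTs (321.75 and 394), and the NSC peak was the wider of the pair at 966 sites against 417 for the AST peak. The peaks of a pair lay almost on top of each other. The stretch common to both made up a median of 0.78 of the stretch that either covered and was never under 171 bp, and at 1383 sites (99.4%) it covered at least 50% of each peak. The AST peak lay wholly inside the NSC peak at 500 sites (35.9%) and the NSC peak inside the AST peak at 154 (11.1%). Sites on either side of the width limit were alike. The 233 sites whose smaller width was 300 to 309 bp had median fold enrichments of 17.94 in NSCs and 13.09 in ASTs, and the 245 shared sites that fell short of the limit by 10 bp or less had 17.01 and 12.98.

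Enrichment at these sites was high in both lists. Fold enrichment is the ratio of the Rad21 fragment pile-up at the summit of a peak to the local background that the peak caller assigned there. It comes from the same pile-ups as width and is therefore also a description. The median over the 1392 sites was 19.66 in NSCs (quartiles 15.25 and 24.6) and 14.4 in ASTs (11.03 and 18.25). Shared sites narrow in both had medians of 8.80 and 7.60. Sites wide in NSCs only had 14.96 and 9.53, and sites wide in ASTs only 11.38 and 11.03. The median wide site stood at the 91.3rd percentile of all autosomal NSC peaks by fold enrichment and at the 89.1st percentile of AST peaks. At 940 sites (67.5%) both peaks were in the top 25% of their own list, against 411 (6.02%) of the sites narrow in both. The share was 30.6% at sites wide in NSCs only and 25.8% at sites wide in ASTs only. Some wide sites had a low fold enrichment, which was 9.09 or less in NSCs at 5% of them, with lowest values of 1.84 in NSCs and 2.96 in ASTs. The site at 1.84 lay on a background of 26.9 times the usual level of the NSC list and had 169 fragments at its NSC summit.

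Sites that were strong in one cell type tended to be strong in the other. Across the 1392 sites, log2 fold enrichment in NSCs and ASTs had a Pearson coefficient of 0.53 and a Spearman coefficient of 0.52, against 0.33 and 0.33 across the 6827 sites narrow in both. Sites wide in NSCs only had 0.43 and 0.44 and sites wide in ASTs only 0.44 and 0.44, between the other two. The classes were cut on width, which comes from the same pile-ups as fold enrichment, so the cut can itself shape these coefficients. Counts are also lower and counting error larger at narrow sites. The part of either in the coefficients was not tested. These coefficients run across sites, which share their library. Of the 701 sites at or above the NSC median, 475 were also at or above the AST median (67.8%, 64.2 to 71.2). Of the 348 strongest sites in NSCs, 186 were among the 348 strongest in ASTs (53.4%, 48.1 to 58.8) and 20 among the 348 weakest (5.75%, 3.55 to 8.74). Fold enrichment was higher in NSCs at 1122 sites (80.6%), with a median log2 difference, AST minus NSC, of -0.44 (-0.47 to -0.41). The lists were not scaled to each other, so the sign of this difference is a property of the lists and cannot be told apart from depth. Over all 11718 shared sites the median was -0.33. At 42 wide sites (3.02%, 2.18 to 4.06) AST fold enrichment exceeded that median by a further 2-fold or more, against 5.81% of all shared sites, and at 72 (5.17%, 4.07 to 6.47) it fell short by 2-fold or more, against 5.28% of all. Against the lower median of the wide sites themselves, 57 (4.09%) lay 2-fold or more above and 55 (3.95%) 2-fold or more below.

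Whole fragments at each summit could be recovered from the deposited fold enrichment and p-value, by taking the p-value as a Poisson tail. This gave a fragment count and a local background for 1391 of the 1392 sites. The median count was 73 fragments in NSCs (quartiles 58 and 92) and 42 in ASTs (33.5 and 53), against 35 and 22 at sites narrow in both. NSC counts were higher at 1351 sites, AST counts at 36, and they were equal at 4. Over all these sites the cell types were more alike in fragments than in fold enrichment. Pearson and Spearman coefficients of log2 counts were 0.71 and 0.68. Of the 720 sites at or above the NSC median count, 544 were at or above the AST median (75.6%, 72.2 to 78.7). The SD over sites of the log2 difference was 0.56 for fold enrichment and 0.39 for fragments, and counting error alone gives 0.29 for fragments. Against the median fragment ratio of all shared sites, 7 wide sites lay 2-fold or more towards ASTs (0.50%, 0.20 to 1.03) and 17 towards NSCs (1.22%, 0.71 to 1.95), where all shared sites had 3% and 1.85%. Against the median fragment ratio of the wide sites themselves, 13 lay 2-fold or more towards ASTs (0.93%) and 11 towards NSCs (0.79%). Counting error is smaller at wide sites, since the value for sites narrow in both is 0.40.

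**Figure D1:**
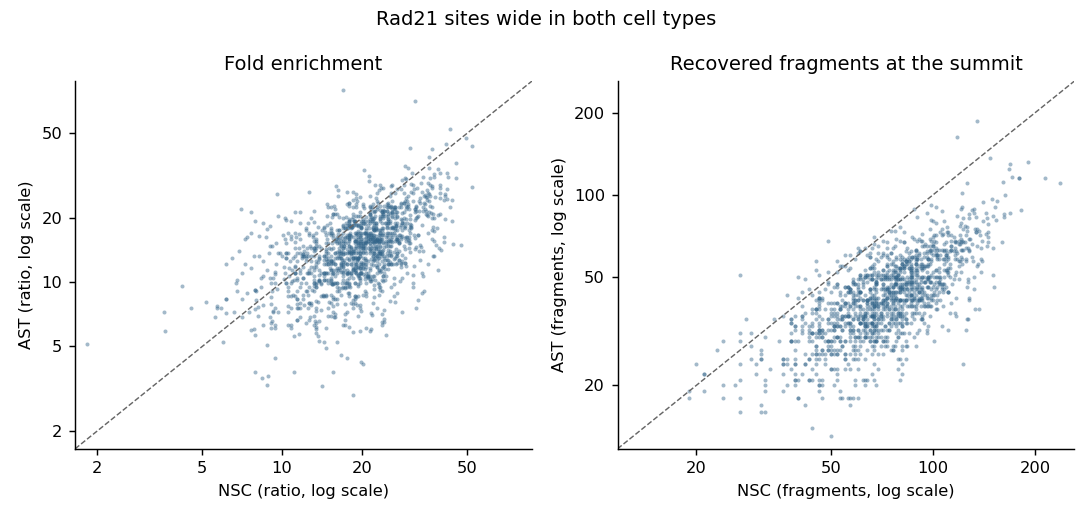
Fold enrichment (left) and recovered fragments at the summit (right) of the sites wide in both cell types, with NSCs on the horizontal and ASTs on the vertical axis, both on log scales, 1 point per site and the dashed line marking equal values. The points form a tighter band for fragments (Spearman coefficient 0.68) than for fold enrichment (0.52), and nearly all fragment counts are higher in NSCs.

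The spread in fold enrichment moved with the local background. Background was called raised where it exceeded 1.1 times the usual level of the list. That level was 3.22 in NSCs and 2.63 in ASTs. It is in units of the scaled pile-up (fragments times 0.944 in NSCs and times 1 in ASTs). The background was raised in neither list at 723 sites, and there the median log2 difference in fold enrichment was -0.41 (-0.43 to -0.37), with an SD of 0.39 and a Spearman coefficient of 0.65. Fragments at these 723 sites also had an SD of 0.39 and a Spearman coefficient of 0.65, so they were no more alike than fold enrichment. At the 194 sites raised in NSCs only the median difference in fold enrichment was 0.07 (-0.03 to 0.13). At the 294 sites raised in ASTs only it was -0.91 (-0.99 to -0.83). At the 180 sites raised in both it was -0.31, with an SD of 0.68 and a Spearman coefficient of 0.43. Chromosome 1 held 76 of these 180 sites and 33 of the 723 raised in neither. Without it the 4 medians were -0.41, 0.07, -0.90 and -0.30. Fragments did not follow these groups, as their median log2 difference lay at -0.78, -0.82, -0.80 and -0.80 in the same order. Fold enrichment has the background as its denominator, so a raised background lowers it by construction. What raised the background at these sites was not tested.

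**Figure D2:**
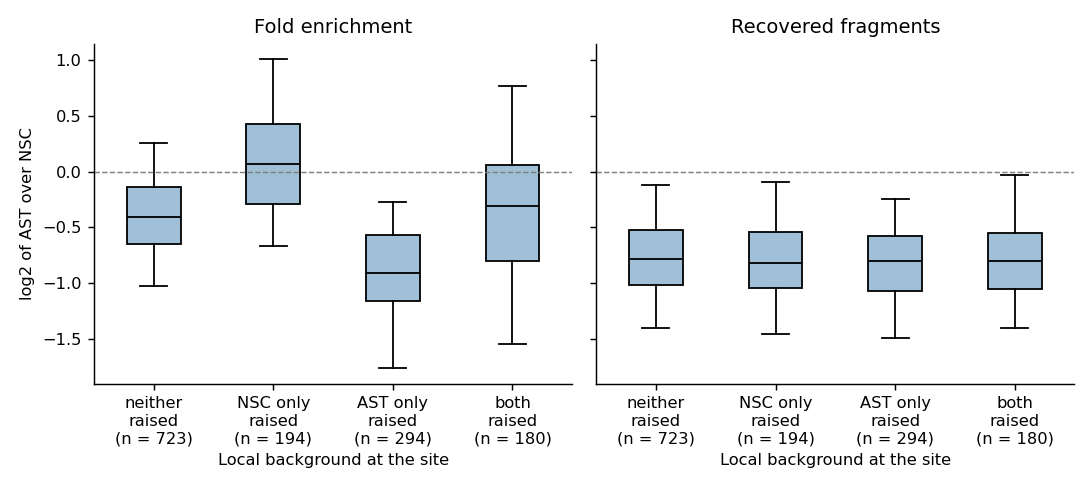
Log2 of the AST over the NSC value for fold enrichment (left) and for recovered fragments (right), for wide sites grouped by where the local background exceeded 1.1 times the usual level. Boxes give the median and quartiles and whiskers the 5th and 95th percentiles over sites. The fold enrichment boxes move from a median of 0.07 to -0.91 with the background, and the fragment boxes stay between -0.78 and -0.82.

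The strongest sites of the set, ranked by the geometric mean of the NSC and AST fold enrichments, were strong in both cell types in fragments too. In mm9 coordinates of the NSC peak, the leading site lay on chromosome 8 at 47019936 to 47020603, with 168 fragments in NSCs and 125 in ASTs and summits 36 bp apart. A site on chromosome 12 at 13221525 to 13222100 had nearly equal counts, 147 and 137 (AST over NSC 0.93, exact 95% counting interval 0.73 to 1.18). A site on chromosome 12 at 88136781 to 88137278 had 191 and 132 fragments, the highest NSC count of these. Only 1 of the 10 had more fragments in ASTs, on chromosome 17 at 4626070 to 4626678, with 135 in NSCs and 187 in ASTs (ratio 1.39, 1.1 to 1.74). The lowest ratio was on chromosome 1 at 156853531 to 156854153, where NSCs had 182 and ASTs 88 (0.48, 0.37 to 0.63). The other sites of this group lay on chromosomes 8 (116188396 to 116188807), 7 (35456947 to 35457387), 4 (154623135 to 154623742), 19 (5001896 to 5002527) and 11 (81809687 to 81810178). Over all 10, counts ran from 122 to 191 in NSCs and from 81 to 187 in ASTs, and no summit moved by more than 36 bp.

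The sites at the extremes of the fold enrichment ratio had a raised background in the cell type with the lower fold enrichment. The highest AST to NSC ratio was on chromosome 6 at 125826864 to 125827286, with fold enrichments of 16.99 in NSCs and 79.85 in ASTs. It is the 1 site whose AST fragments could not be recovered, so it is missing from the fragment counts and ratios. Its AST fold enrichment was the highest of the wide sites. No recovered AST background of the wide sites was under 0.9995 times the usual level. On such a background this site would have more fragments in ASTs than in NSCs. In NSCs it had 90 fragments on a background of 1.55 times the usual level. The next 4 sites had fold enrichments of 7.01 and 22.05 (chromosome 1 at 137068569 to 137068908), 1.84 and 5.15 (chromosome 17 at 39979952 to 39981666), 7.63 and 21.29 (chromosome 3 at 9466287 to 9466614) and 9.57 and 25.86 (chromosome 12 at 12324887 to 12325241), NSCs first. All 4 had more fragments in NSCs than in ASTs, with AST over NSC ratios of 0.56 to 0.96. That direction was the usual one, found at 1351 of the 1391 wide sites with recovered counts. The median log2 of the fragment ratio over those sites was -0.79. In NSCs the background of these 4 sites stood at 4.35, 26.9, 3.73 and 2.18 times the usual level. The lowest AST to NSC ratios were on chromosome 4 at 100210485 to 100210889 (18.48 in NSCs and 2.96 in ASTs), chromosome 6 at 59130393 to 59130698 (20.24 and 4.12), chromosome 9 at 85673091 to 85673471 (19.95 and 4.22), chromosome 1 at 139122073 to 139122424 (24.77 and 5.64) and chromosome 9 at 52952331 to 52952635 (14.16 and 3.26). At these 5 sites the AST background was 1.80 to 3.30 times the usual level. Their AST over NSC fragment ratios were 0.33, 0.38, 0.29, 0.47 (0.33 to 0.66) and 0.3 in the same order. Nearly all wide sites had fewer fragments in ASTs, so that direction is not particular to these 5 sites. In size the ratios of 0.33, 0.29 and 0.3 were low among wide sites. They lay below the 5th percentile of the wide sites, a log2 ratio of -1.44, and those of 0.38 and 0.47 lay above it.

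The Rad21 summit, the position of the highest pile-up within a peak, was at nearly the same place in both cell types. The median distance between the NSC and AST summits was 15 bp (14 to 17), with quartiles of 7 and 28 bp. It was 0 bp at 20 sites, at most 10 bp at 487 (35.0%, 32.5 to 37.6), at most 20 bp at 850 (61.1%, 58.4 to 63.6) and at most 50 bp at 1294 (92.96%, 91.5 to 94.2). There was no shift to one side. The AST summit lay at the higher coordinate at 689 sites and at the lower at 683, with a median signed offset of 0 bp (-1 to 2). Both summits lay inside both peaks at 1389 of 1392 sites. Within the peak the median summit position was 0.49 of the width from the start in each cell type.

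Summits were closer together at wide sites than in the other classes of shared sites. Within levels of the smaller fragment count of the pair they were not closer than at sites narrow in both or wide in NSCs only. The larger count was left free. The top level, from 54 fragments, reached 137 at wide sites, 93 at sites narrow in both and 85 at sites wide in NSCs only. The median distance was 18 bp (17 to 19) at sites wide in NSCs only, 20 bp (17 to 23) at sites wide in ASTs only and 20 bp (19 to 21) at sites narrow in both, and summits within 50 bp made up 91.4%, 88.0% and 86.4% of these. The distance shortened with the number of fragments. Among wide sites whose smaller count of the pair was 10 to 22 fragments it was 32 bp (26 to 44, n = 66), at 23 to 33 fragments 20 bp (17 to 23, n = 284), and at 54 or more 13 bp (11 to 14, n = 330). Narrow sites had 24 bp (23 to 25), 17 bp (16 to 18) and 6.5 bp (4 to 12) at the same counts. At 34 to 42 fragments the medians were 16 bp (14 to 18) for wide and 13 bp (12 to 15) for narrow sites, and at 43 to 53 fragments 15 bp (13 to 17) and 14 bp (12 to 16). Wide sites thus had the longer median than narrow sites at each of the 5 levels, with intervals that did not overlap at the lowest level and overlapped at the others, where at 54 fragments or more 46 narrow sites were available. Sites wide in NSCs only had medians of 25, 19, 15, 13 and 8 bp from the lowest to the highest counts. These were also shorter at each level, but the intervals overlapped or met at every level. Sites wide in ASTs only had 38, 19, 15, 15.5 and 20 bp, longer than the sites wide in both at 3 levels and shorter at the other two, with intervals that overlapped at every level. A summit lies inside its own peak, so the cut on width can itself shape these distances. Its part in them was not tested.

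**Figure D3:**
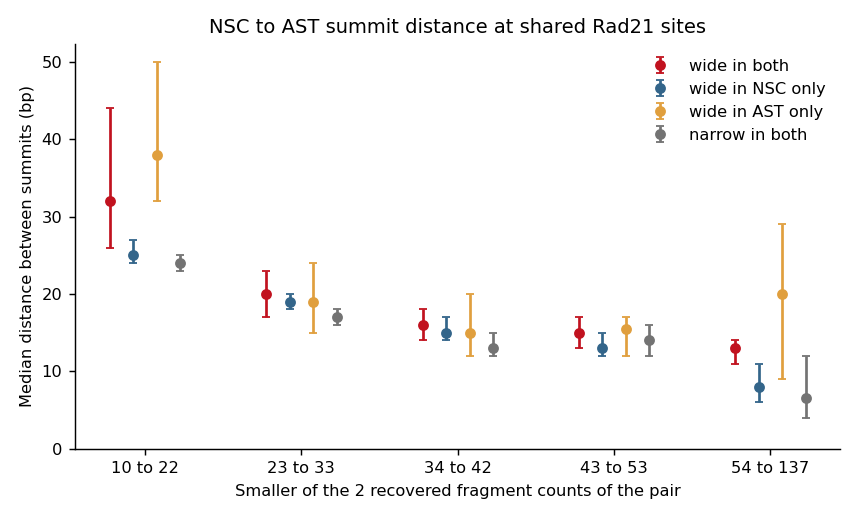
Median distance between NSC and AST summits (bp, vertical axis) for shared sites grouped by the smaller of their recovered fragment counts (horizontal axis), by width class, with 95% order-statistic intervals as bars. In wide sites, in red, the median runs from 32 bp at the lowest counts to 13 bp at the highest, and narrow sites, in grey, run from 24 to 6.5 bp.

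Summits lay over 100 bp apart at 17 of the 1392 sites. The farthest was on chromosome 17 at 39979952 to 39981666, which was also the widest, at 1715 bp in NSCs and 1989 bp in ASTs, with summits 1204 bp apart. Its background was 26.9 times the usual level in NSCs and 9.60 times in ASTs, the highest in either list among the wide sites. The other 4 of the 5 largest distances were 306 bp on chromosome 1 at 134655191 to 134655974, 298 bp on chromosome 8 at 26386588 to 26387155, 228 bp on chromosome 7 at 146254030 to 146254529 and 220 bp on chromosome 8 at 69955067 to 69955677. At the first of these the peaks were 784 and 816 bp wide, with 96 fragments in NSCs and 65 in ASTs. The site on chromosome 8 at 26386588 had 19 fragments in each. The second widest site, on chromosome 3 at 21834473 to 21835337, was 865 bp wide in NSCs and 980 bp in ASTs, with summits 153 bp apart. Of the 27 sites with both peaks at 500 bp or more, 21 had summits within 50 bp (77.8%, 57.7 to 91.4).

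Wide sites lay a median of 780.8 kb (705 to 852) from one to the next along a chromosome, against 88.2 kb (85.6 to 90.9) for all shared sites. They were 11.9% of the shared sites, and a smaller set has longer gaps by its number alone. The gaps were uneven. Their lower and upper quartiles were 257 kb and 1980.6 kb, and their median was 0.46 of their mean of 1691.5 kb, close to the 0.43 of all shared sites. Of 1373 gaps, 19 were under 10 kb (1.38%), 136 under 100 kb (9.91%), 145 between 100 and 200 kb (10.6%) and 778 under 1 Mb (56.7%), and 106 were 5 Mb or more. A median of 5 other shared sites lay between neighbouring wide sites, and at 207 gaps (15.1%) there was none.

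**Figure D4:**
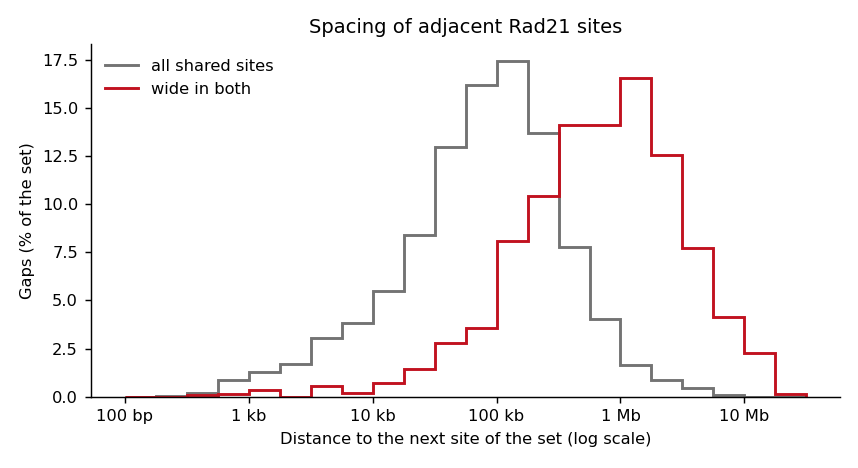
Distances between the NSC summits of adjacent sites (log scale, horizontal axis) as a percentage of the gaps of each set (vertical axis), for the 1392 wide sites in red and all 11718 shared sites in grey. The wide sites peak near 1 Mb and the shared sites near 100 kb, with medians of 780.8 and 88.2 kb.

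Some wide sites came as close pairs. The closest lay on chromosome 19 at 12576058 to 12576480 and 12576548 to 12576871, with NSC summits 510 bp apart and fold enrichments of 11.73 and 22.50 in NSCs and 7.98 and 10.29 in ASTs. The next were 595 bp apart on chromosome 7, at 139847777 to 139848161 and 139848203 to 139848621, and 963 bp apart on chromosome 13, at 98707841 to 98708212 and 98708725 to 98709222. The other pairs of the closest 5 were 1003 bp apart on chromosome 18, from 62844031, and 1353 bp apart on chromosome 1, from 78721071. In the last pair the members were unequal in both cell types, at 41.36 and 9.54 in NSCs and 25.33 and 9.29 in ASTs. The longest gaps were 22.3 Mb on chromosome 14, after 100294291, 18.2 Mb on chromosome 15, after 7410422, and 17.7 Mb on chromosome 13, after 81021386. They were not empty of cohesin, since 109, 53 and 89 NSC peaks and 87, 44 and 80 AST peaks lay in them, with 58, 34 and 64 other shared sites.

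Wide sites had wide neighbours somewhat more often than the other shared sites pooled. The next shared site on at least 1 side was wide in both for 378 of the 1392 wide sites (27.2%, 24.8 to 29.6) and for 2218 of the 10326 others (21.5%, 20.7 to 22.3). Among the others the share was 20.3% (19.3 to 21.3) for sites narrow in both, 23.4% for sites wide in NSCs only and 26.2% (22.4 to 30.2) for sites wide in ASTs only, and the last interval includes the share of the sites wide in both. Without chromosome 1 the shares of wide and of all other shared sites were 26.5% and 20.5%. The share was higher in wide sites on 15 of the 19 autosomes. Neighbouring sites are not independent, so these intervals understate the error. Most wide sites stood alone: 1014 had no wide neighbour, 282 came in runs of 2, 75 in runs of 3, 16 in runs of 4 and 5 in a single run of 5. Wide sites with another within 100 kb (250 sites) had median counts of 80 fragments in NSCs (75 to 82) and 45 in ASTs (42 to 46), and the 311 sites with none within 1 Mb had 68 (66 to 74) and 39 (37 to 41). Without chromosome 1 these were 75 (70 to 80) and 43 (40 to 45) for 187 sites against 68 (66 to 73) and 39 (36 to 41) for 291, with intervals that overlapped. The number of other Rad21 peaks around a site differed little between classes. Within 100 kb on either side, wide sites had a mean of 2.54 other NSC and 2.27 other AST peaks, and sites narrow in both had 2.42 and 2.16.

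The share of shared sites that were wide in both differed between chromosomes. It was highest on chromosome 1, at 180 of 1017 (17.7%, 15.4 to 20.2), followed by chromosome 19 with 70 of 427 (16.4%, 13.0 to 20.3) and chromosome 12 with 77 of 515 (14.95%, 11.98 to 18.3). It was lowest on chromosome 2, at 87 of 918 (9.48%, 7.66 to 11.6). On the other 15 autosomes the interval included the 11.9% of all autosomes. On chromosome 1 the local background was raised at 50.6% of the wide sites in NSCs and 73.3% in ASTs. On no other autosome was it raised at more than 34% and 38.6%. It was raised at 28.6% and 31.4% on chromosome 19 and at 19.5% and 24.7% on chromosome 12. Fragment counts were also highest on chromosome 1, with medians over its wide sites of 90 in NSCs and 49 in ASTs. On the other autosomes these medians were 63 to 77.5 and 39 to 46. The part of either in the share was not tested. Per Mb of chromosome up to the last peak, wide sites were densest on chromosome 19 (1.14), chromosome 1 (0.91) and chromosome 11 (0.85), and sparsest on chromosome 3 (0.36). All shared sites had 6.96, 5.16, 7.21 and 3.64 per Mb on these chromosomes in the same order. On chromosome 11 the share of wide sites was 11.9%, as over all autosomes. The median summit distance lay between 13 and 19 bp on every autosome, and the median log2 difference in fold enrichment between -0.55 and -0.32.

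**Figure D5:**
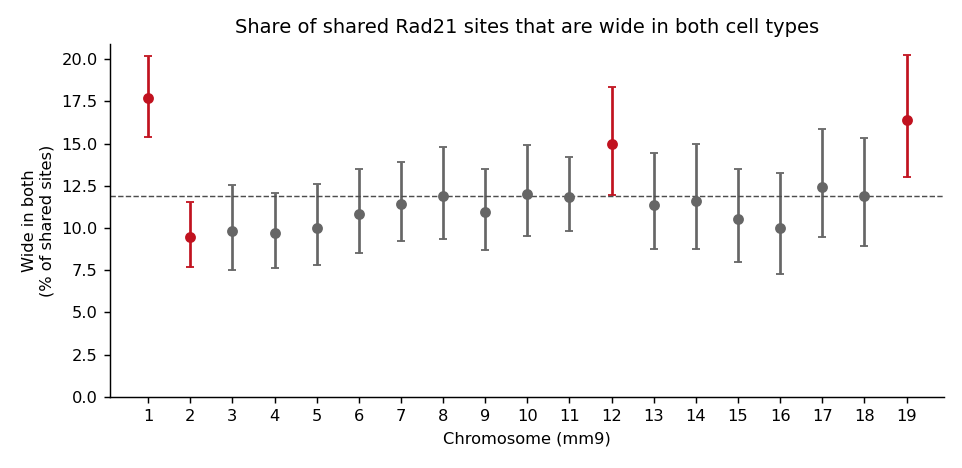
Sites wide in both cell types as a percentage of shared sites (vertical axis) on each autosome (horizontal axis, mm9), with exact binomial 95% intervals as bars and the 11.9% of all autosomes as a dashed line. Chromosomes whose interval leaves out that value are in red: 1, 12 and 19 above it and 2 below it.

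In windows of 1 Mb, 904 of the 1987 with a shared site held a wide one (45.5%): 587 held 1, 204 held 2 and 113 held 3 or more. The fullest lay on chromosome 1, at 134 to 135 Mb (7 wide of 18 shared sites) and 156 to 157 Mb (7 of 10). The windows at 92 to 93 Mb (6 of 12) and 137 to 138 Mb (6 of 23) of chromosome 1 were level behind them. The median background of the wide sites in these 4 windows was 1.22, 1.02, 1.00 and 1.14 times the usual level in NSCs and 1.5, 1.43, 1.13 and 1.00 times in ASTs.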

How the data were processed

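Rad21 peak lists of 1 NSC and 1 AST library were used. Build mm9, Bowtie 1.0.0 and MACS2 2.0.9 are named in the submitters' processing notes. The peak calling settings and q threshold are not given in the sources used here. Fold enrichment was deposited as a ratio of summit pile-up to local background, and p and q were deposited as −log10 values. The lowest −log10 q was 1.02 in NSCs and 1.03 in ASTs.

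Peaks were paired by overlap and summits taken from the deposited offset. Positions count from 1. Fragments and background were recovered by matching each −log10 p to a Poisson tail within 0.05, with 1 scale per list (0.944 in NSCs, 1 in ASTs), searched from 0.7 to 1, which succeeded for every NSC peak and all but 1 AST peak. A scale divided by a whole number returns the same p-values, so the counts rest on the range searched. The usual background is the median over peaks of fold enrichment above 8. Counting intervals treat fragments as independent molecules, which was not checked. The pairing and recovery steps were tested on simulated data.

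The sites, the width limit and the comparisons were chosen with earlier results of these data known. Sites were named by a fixed rule: the 10 of highest geometric mean fold enrichment, the 5 highest and 5 lowest ratios, the 5 largest summit distances, the 3 widest, the 5 closest neighbours, the 3 longest gaps and the 3 fullest windows. Ties were taken in order of chromosome and position, and the window level with the third was added after its value was seen. No mm9 sequence or gene annotation was used here, so sites carry no sequence, motif or gene name. Alternatives changed the width limit, overlap rule, q threshold, chromosomes, enrichment measure, summit and neighbour definition. The work was done in Python 3.11.15 with matplotlib 3.10.9, scipy 1.17.1, pandas 2.3.3 and numpy 2.4.6.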

Additional observations from a re-analysis of the deposited data

How the results depend on the processing

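Of 75 values recomputed for 18 results under 13 settings, 56 stayed within the interval of the reported value, or for counts of sites within 1.5 times, and 19 moved beyond it, with none changing sign. With both widths at 250 bp or more there were 3118 sites (26.6% of shared sites), with a median spacing of 322 kb and a wide neighbour at 50.7%. With 400 bp there were 203 (1.73%), with 6485.5 kb and 7.88%. These settings change the number of sites, which sets spacing and neighbours. Reciprocal overlap of at least 0.5 gave a share of 12.8%, as fewer pairs counted as shared. A −log10 q of at least 10 gave 19.8%, with 94.6% of summits within 50 bp and a wide neighbour at 41%, again over fewer shared sites. With any NSC peak as the neighbour the last value was 18.6%. Wide sites had a wide neighbour more often than other shared sites in each of the 7 settings in which both were computed, the reported one included. Between the middles of the peaks the median distance was 30.8 bp and 69.8% lay within 50 bp. With −log10 p in place of fold enrichment the median log2 difference was -0.87 and 72.7% of the sites at or above the NSC median were so in ASTs. With recovered fragments, added after the data had been seen, these were -0.79 and 75.6%. The values without chromosome 1 for the background groups and for the distance to the nearest wide site were also added then. With 1 library per cell type no library could be left out, and depth was known only as recovered fragments at summits.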

Other observations

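The rule leaves out chromosome X and peaks that overlap more than 1 peak of the other list. On chromosome X, 12 of 253 sites shared 1-to-1 were wide in both (4.74%, 2.47 to 8.14). Their median fold enrichment was 16.04 in NSCs and 13.69 in ASTs, with summits a median of 14 bp apart. On the autosomes, 29 of the 127 overlapping pairs that were not 1-to-1 had both peaks at 300 bp or more. Their NSC peaks had a median width of 588 bp and their AST peaks 354 bp, and the median summit distance was 59 bp.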
